A study of Capra hircus with 12 samples.

Results

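The miRNAs described here are the skeletal muscle miRNAs of the miR-1/miR-133a and miR-206/miR-133b clusters in goat longissimus dorsi. They were chosen by name, as every row of the deposited count table named chi-miR-1, chi-miR-206, chi-miR-133a or chi-miR-133b on any arm. The name rule used no measured value, but it was set with earlier results of these data known. It found 5 of the 500 miRNAs in the table, namely chi-miR-1, chi-miR-206, chi-miR-133b and both arms of the miR-133a hairpin, chi-miR-133a-3p and chi-miR-133a-5p. All 5 of them had enough counts to be tested.

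Small RNA libraries came from the longissimus dorsi, a long muscle along the spine, of healthy rams that were fasted before slaughter. The breeds were Longlin, a Chinese native goat, and Nubian, an introduced meat goat, and no group carried a treatment or a transgene. Each breed was labelled 1-Month or 10-Month, with 3 libraries in each of the 4 groups and 1 goat for each library. The p-values measure the spread among these goats.

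The age names of the deposited tables disagreed with each other. In the authors' comparison tables, the mean named 10-month-old equalled the size-factor mean of the libraries labelled 1-Month for 500 of 500 miRNAs in Longlin goats, and for 500 of 500 in Nubian goats, within a tolerance of 0.1% plus 0.001. The opposite pairing of names gave equal means for only 10 miRNAs in Longlin and 20 in Nubian goats. Throughout, "1-month" and "10-month" refer to the labels of the libraries, and every age difference is the 10-month label relative to the 1-month label. Had the labels been exchanged, the sign of each age difference would turn.

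A library held between 7002417 and 11350546 miRNA counts (median 9184753). At this depth the counting error of a share was small beside the spread between goats. For chi-miR-1 in the 10-month Longlin replicate 1, for example, the share of 30.97% had a 95% Wilson interval from 30.94% to 30.99%. Reads were counted without molecular identifiers, and such intervals cover counting error only. Of 66 pairs of libraries, none held the same counts within sampling noise.

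The miRNAs of both clusters are called myomiRs because they are made almost only in striated muscle. Transcription factors of the MyoD and MEF2 families switch on their host transcripts as myoblasts stop dividing and fuse into fibers. miR-1 and miR-206 share their seed, the stretch that pairs with a target mRNA, and they favor differentiation by lowering factors such as HDAC4 and Pax proteins. miR-133a and miR-133b have another seed and are known for repressing SRF and for keeping myoblasts in proliferation. miR-1 and miR-133a are made in both heart and skeletal muscle, while miR-206 and miR-133b are made in skeletal muscle and are associated with satellite cells, regeneration and slow fibers.

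In the RefSeq annotation of the goat assembly ARS1.2, the miR-133a hairpin (MIR133A) lay on chromosome 13 from 54053489 to 54053583, and the miR-1 hairpin (MIR1) on the same chromosome from 54063787 to 54063879. A gap of 10203 bp separated them, and the nearest protein-coding genes on either side were SLCO4A1, a solute carrier, and GATA5, a cardiac transcription factor. The miR-133b hairpin (MIR133B) lay on chromosome 23 from 24587517 to 24587621, and the miR-206 hairpin (MIR206) from 24591610 to 24591695, with 3988 bp between them. This pair sat between IL17A, a cytokine gene, and PKHD1. No gene of the annotation spanned any of these hairpins. In mammals a further miR-1/miR-133a cluster makes the same mature miR-1 and miR-133a-3p, and reads from both copies cannot be told apart. miR-133b and miR-133a-3p are likewise almost identical in sequence, so reads could have been split between them in the authors' counting, and the split between these rows is uncertain.

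The 5 miRNAs together took most of the miRNA counts in 10 of the 12 libraries. chi-miR-1 ranked first in every library. chi-miR-206 had a median rank of 2, between 2 and 5, and chi-miR-133a-3p a median rank of 9, between 7 and 14. chi-miR-133a-5p and chi-miR-133b each had a median rank of 43. By mean share over the 12 libraries, chi-miR-1 with 51.7% was followed by chi-miR-143-3p with 8.19% and chi-miR-206 with 6.84%. Next came chi-miR-26a-5p, chi-miR-10b-5p, chi-miR-378-3p, chi-miR-148a-3p, chi-let-7f-5p, chi-miR-381 and chi-miR-21-5p, each between 1.63% and 4.53%.

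**Figure D1:**
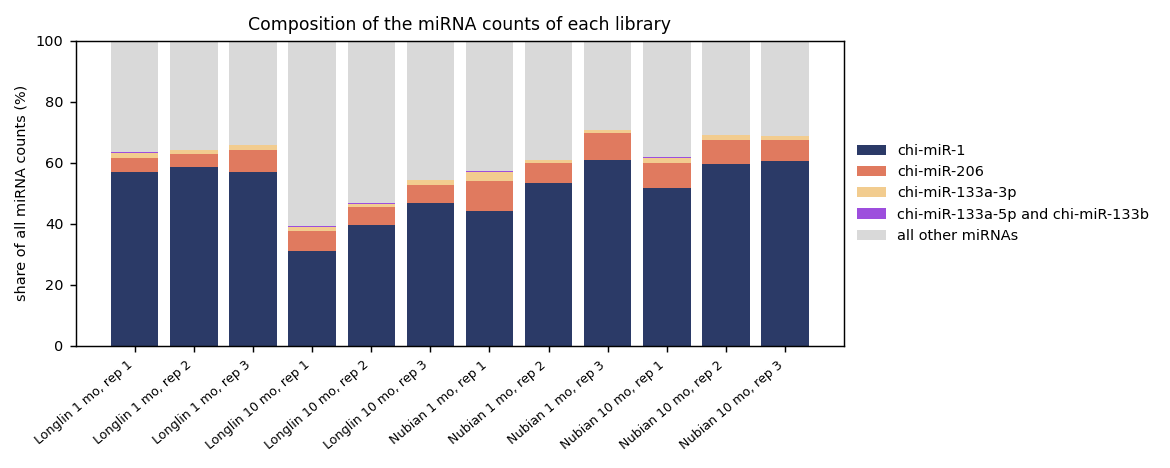
Stacked bars of the share of all miRNA counts (percent, 0 to 100) in each of the 12 libraries, with a color for chi-miR-1, chi-miR-206, chi-miR-133a-3p, the sum of chi-miR-133a-5p and chi-miR-133b, and all other miRNAs. The 5 muscle miRNAs fill 63.4% to 65.8% of the 1-month Longlin libraries and 39.2% to 54.3% of the 10-month Longlin libraries, while the Nubian libraries lie between 57.2% and 70.9%.

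The tissue label was checked against these and other markers. The 5 muscle miRNAs summed to 39.2% of the counts or more in every library, although the extraction text of the labels names adipose tissue. The 4 erythroid miRNAs summed to at most 0.0520% and the 4 leukocyte miRNAs to at most 0.0432% of any library. The 5 fibroblast rows reached 0.289%, the 2 endothelial rows 0.732% and the 4 smooth muscle rows 13.1%. Markers of adipose tissue were not read, so a part of adipose tissue in the samples was not tested.

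chi-miR-1, the most abundant of these miRNAs, was lower in the 10-month Longlin libraries and did not pass the test in Nubian goats. Its share was 57.1%, 58.6% and 57.0% in the 1-month Longlin libraries and 30.97%, 39.7% and 46.7% in the 10-month Longlin libraries. It was 44.2%, 53.3% and 61.0% in the 1-month and 51.8%, 59.5% and 60.6% in the 10-month Nubian libraries. The Longlin groups did not overlap, whereas the Nubian groups lay over the same range.

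In Longlin goats the mean share of chi-miR-1 was 57.6% ± 0.908 (SD, n = 3) at 1 month and 39.1% ± 7.90 (SD, n = 3) at 10 months, a difference of -18.4 percentage points. The two-sided exact permutation test gave p = 0.10, the smallest value that 3 against 3 allows. After TMM scaling, which sets the libraries to a common level by the bulk of the miRNAs, chi-miR-1 was 2.52-fold lower, with a log2 fold change of -1.33 (SE 0.30, adjusted p = 0.0028, edgeR quasi-likelihood test, Benjamini-Hochberg). Fewer muscle fibers in the sample and less of a miRNA in each fiber cannot be told apart in such bulk libraries. The size of the difference rested in part on replicate 1 of the 10-month group. Without it the log2 fold change was -0.90 with an adjusted p of 0.029, below the fold limit.

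In Nubian goats the mean share of chi-miR-1 was 52.9% ± 8.42 (SD, n = 3) at 1 month and 57.3% ± 4.79 (SD, n = 3) at 10 months. The log2 fold change was -0.04 (95% interval -1.03 to 0.94, adjusted p = 0.94, edgeR quasi-likelihood test). The Longlin interval ran from -1.997 to -0.67, and the intervals of the breeds overlapped. The breed by age interaction, the Nubian minus the Longlin age difference, came from a separate fit of all 12 libraries. In that fit the log2 fold change of chi-miR-1 was -1.04 in Longlin (adjusted p = 0.027, edgeR quasi-likelihood test) and 0.074 in Nubian goats. The interaction was 1.11 (SE 0.49) with an unadjusted p of 0.043 and an adjusted p of 0.39 in the same test. The age difference was therefore not shown to differ between breeds.

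chi-miR-206, which shares the seed of miR-1, did not pass the test in either breed. Its share was 4.58%, 4.22% and 7.18% in the 1-month and 6.56%, 5.66% and 6.01% in the 10-month Longlin libraries. In Nubian goats it was 9.75%, 6.47% and 8.61% at 1 month and 8.22%, 8.01% and 6.81% at 10 months. In both breeds the ages overlapped, and replicate 3 stood above the other 1-month Longlin libraries.

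After scaling, the log2 fold change of chi-miR-206 was -0.63 (SE 0.28, adjusted p = 0.080, edgeR quasi-likelihood test) in Longlin and -0.23 (SE 0.30, adjusted p = 0.61, the same test) in Nubian goats. Neither passed the threshold. The interval in Longlin goats ran from -1.26 to 0.0025. The Longlin value was -0.29 without the 1-month replicate 3 and -0.39 without the 10-month replicate 1. Without the 1-month replicate 1 it was -0.81 with an adjusted p of 0.038 in the edgeR quasi-likelihood test, under the fold limit of 1 on the log2 scale that a differentially expressed miRNA (DEM) needed.

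chi-miR-133a-3p, the main product of the miR-133a hairpin, overlapped between the ages in both breeds by share. In Longlin goats the share was 1.63%, 1.36% and 1.49% at 1 month and 1.46%, 1.18% and 1.46% at 10 months. In Nubian goats it was 3.03%, 1.19% and 1.12% at 1 month and 1.59%, 1.54% and 1.31% at 10 months. The 1-month Nubian replicate 1 stood above every other library, and the remaining 11 libraries covered 1.12% to 1.63%.

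Relative to the bulk of the miRNAs, chi-miR-133a-3p had a log2 fold change of -0.92 in Longlin goats (SE 0.22, adjusted p = 0.0047, edgeR quasi-likelihood test). It was 1.89-fold lower, below the fold limit of a DEM. Without the 10-month replicate 1 or replicate 2 it was -0.65 or -0.66, with an adjusted p of 0.062 or 0.090 in the same test. In Nubian goats the log2 fold change was -0.25 (SE 0.29, adjusted p = 0.56, edgeR quasi-likelihood test), and without the 1-month replicate 1 it was 0.014.

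chi-miR-133a-5p, the minor arm of the same hairpin, had a share of 0.0561%, 0.0361% and 0.0363% in the 1-month and 0.0762%, 0.0623% and 0.0810% in the 10-month Longlin libraries. In Nubian goats the share was 0.104%, 0.0435% and 0.0386% at 1 month and 0.0705%, 0.0581% and 0.0470% at 10 months. All 10-month Longlin libraries lay above all 1-month Longlin libraries, and the Nubian groups overlapped. chi-miR-133b, the partner of miR-206, had a share of 0.0635%, 0.0375% and 0.0425% in the 1-month and 0.0964%, 0.0717% and 0.0700% in the 10-month Longlin libraries. Its share in Nubian goats was 0.0962%, 0.0530% and 0.0493% at 1 month and 0.0518%, 0.0414% and 0.0482% at 10 months. It was separated in Longlin goats toward the 10-month label, and in Nubian goats the ages overlapped.

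On the scaled counts neither of these minor miRNAs passed the test. The log2 fold change of chi-miR-133a-5p was 0.01 in Longlin and -0.10 in Nubian goats, and that of chi-miR-133b was -0.06 and -0.54. The adjusted p-values of the edgeR quasi-likelihood test were 0.98 and 0.83 for chi-miR-133a-5p, and 0.82 and 0.15 for chi-miR-133b.

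**Figure D2:**
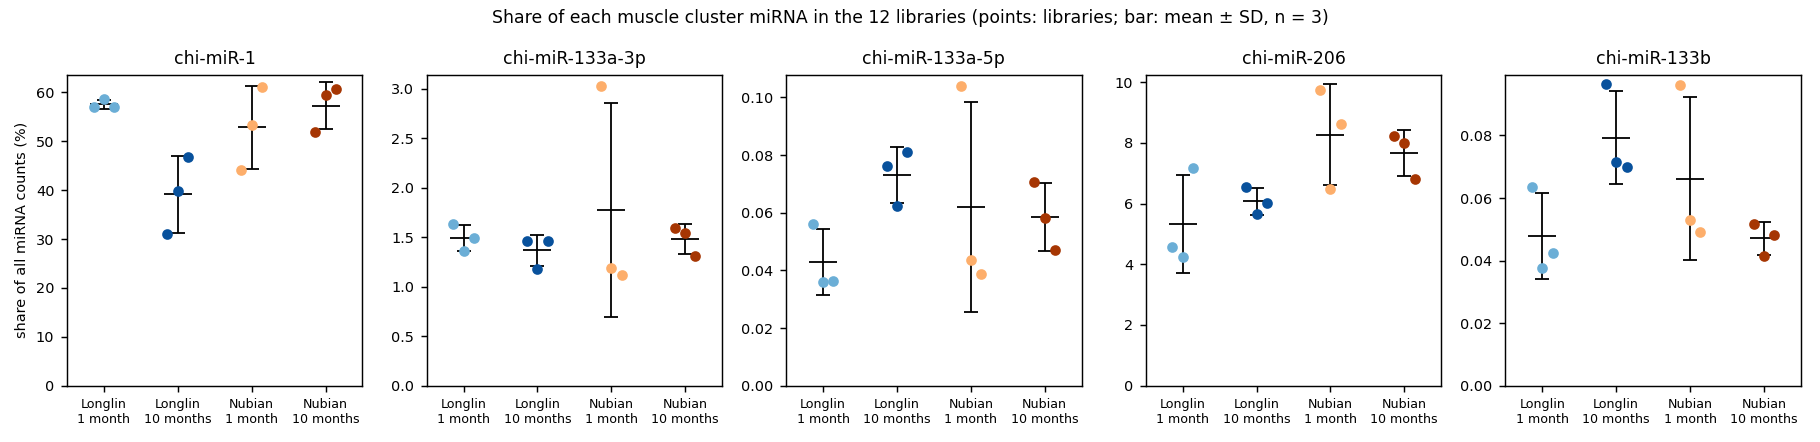
Share of all miRNA counts (percent, linear axes from 0, a separate scale for each miRNA) of the 5 muscle miRNAs by group, with points for libraries and bars for the mean ± SD (n = 3). chi-miR-1 separates the Longlin ages downward from 57.6% to 39.1%, chi-miR-133a-5p and chi-miR-133b separate them upward, and 1 Nubian library stands high for chi-miR-133a-3p at 3.03%.

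By share, 3 of the 5 miRNAs separated the Longlin ages without overlap, which were chi-miR-1 downward and chi-miR-133a-5p and chi-miR-133b upward. Of all 314 miRNAs tested in Longlin goats, 69.7% were separated in this way, 14.6% downward and 55.1% upward. In Nubian goats 0 of the 5 were separated, against 33.2% of the 295 miRNAs tested. In the edgeR quasi-likelihood test 1 of the 5, chi-miR-1, was a DEM in Longlin goats, where 50.6% of all tested miRNAs were DEMs, 19.4% lower and 31.2% higher. Without the fold limit 2 of the 5, chi-miR-1 and chi-miR-133a-3p, passed in Longlin goats against a background of 58.9%. In Nubian goats 0 of the 5 were DEMs against a background of 11.9%, 5.08% lower and 6.78% higher, and 0 of the 5 had an unadjusted p under 0.05 or were called by DESeq2.

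The age effect over both breeds, with breed as a term, left 0 of the 5 as DEMs by edgeR's quasi-likelihood test or by DESeq2, against a background of 41.4% in edgeR, and 0 of the 5 had an unadjusted p under 0.05. The log2 fold changes were -0.48 for chi-miR-1, -0.39 for chi-miR-133a-3p, -0.23 for chi-miR-206, -0.09 for chi-miR-133b and 0.15 for chi-miR-133a-5p. Single libraries moved these values. Without the 1-month Nubian replicate 1, chi-miR-1 was -0.86 with an adjusted p of 0.023 in edgeR's quasi-likelihood test. chi-miR-133a-3p was -0.67 or -0.68 without the 1-month Nubian replicate 2 or 3, and -0.65 or -0.61 without the 10-month Nubian replicate 2 or 3, with adjusted p-values of 0.011, 0.014, 0.023 and 0.031 in the same test. All of these lay under the fold limit. chi-miR-206 ran from -0.47 to -0.19 and chi-miR-133b from -0.33 to -0.0020, with no adjusted p under 0.05 in that test. For the interaction, 0 of the 5 passed, where the background was 0.0%, with 37 of 331 miRNAs at an unadjusted p under 0.05 and 3 called by DESeq2. Of the 5 muscle miRNAs, chi-miR-1 alone had an unadjusted interaction p under 0.05.

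Scaling decided the sign of several of these values in Longlin goats. Under total counts, where a value is a share of the library, the median log2 fold change of all 314 miRNAs rose from -0.01 to 0.79. The values of the muscle miRNAs rose with it, to -0.56 for chi-miR-1, -0.13 for chi-miR-133a-3p, 0.19 for chi-miR-206, 0.73 for chi-miR-133b and 0.77 for chi-miR-133a-5p. chi-miR-1 was then no DEM (adjusted p = 0.021 by edgeR's quasi-likelihood test, under the fold limit), and chi-miR-206 and chi-miR-133b changed sign. The values of chi-miR-133b and chi-miR-133a-5p had adjusted p-values of 0.042 and 0.028 in the same test, also under the fold limit.

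A change of scaling moves each miRNA and the median of all miRNAs by nearly the same amount, so that a difference from the median is by construction almost free of it. For chi-miR-1 the difference from the median was -1.32 with TMM, -1.33 with DESeq2's size factors, -1.35 with total counts and -1.31 with total counts less the 5 muscle miRNAs. For chi-miR-133a-3p it ran from -0.92 to -0.90, for chi-miR-206 from -0.64 to -0.60, and for chi-miR-133b and chi-miR-133a-5p it lay within -0.07 and 0.02.

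**Figure D3:**
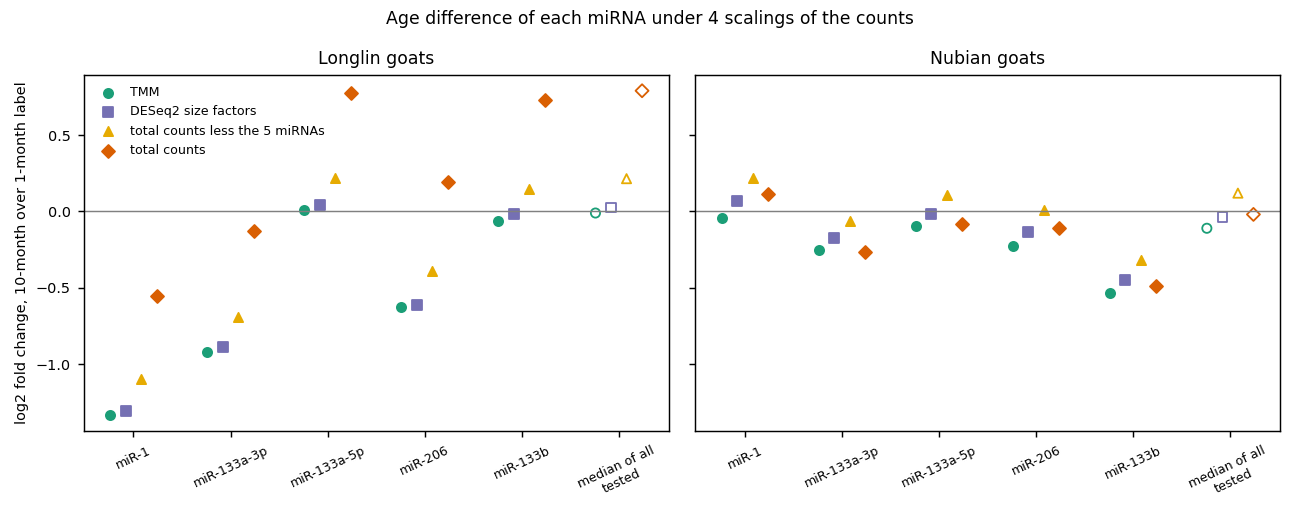
Log2 fold change of the 10-month over the 1-month label (vertical axis) of the 5 muscle miRNAs and, as open symbols, of the median of all tested miRNAs, under TMM, DESeq2 size factors, total counts less the 5 miRNAs, and total counts. In Longlin goats total counts lift each value and the median, which reaches 0.79, and in Nubian goats the medians lie between -0.11 and 0.12.

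In Nubian goats the median of all tested miRNAs moved from -0.11 with TMM to 0.12 with total counts less the 5 miRNAs. Relative to that median, chi-miR-1 lay between 0.07 and 0.14 and chi-miR-133b between -0.47 and -0.41. The share of the counts outside the 5 miRNAs was 34.2% to 36.6% in the 1-month and 45.7% to 60.8% in the 10-month Longlin libraries, without overlap. It was 29.1% to 42.8% in the 1-month and 30.8% to 38.2% in the 10-month Nubian libraries.

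Ratios between miRNAs of the same library need no scaling, and 10 ratios can be formed from the 5 miRNAs. Of these, 6 separated the Longlin ages without overlap and 0 the Nubian ages. Over all pairs of tested miRNAs the background was 68.8% in Longlin and 44.4% in Nubian goats. The 10 ratios share 5 miRNAs and are not independent of one another, and their difference from the background was not tested.

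The ratio of the seed relatives, miR-206 to miR-1, was higher at the 10-month label in Longlin goats without overlap. For every 100 reads of chi-miR-1 there were 8.02, 7.21 and 12.6 reads of chi-miR-206 in the 1-month and 21.2, 14.3 and 12.9 in the 10-month Longlin libraries. In Nubian goats there were 22.04, 12.1 and 14.1 at 1 month and 15.9, 13.5 and 11.2 at 10 months. The Longlin groups were separated by a narrow gap between 12.6 and 12.9, and the Nubian groups overlapped. The mean log2 ratio differed by 0.81 in Longlin goats, 1.75-fold, with an exact permutation p of 0.10, and by -0.22 in Nubian goats with an exact p of 0.60. Permuted within both breeds (400 arrangements, smallest p 0.005), the exact p was 0.29 for a mean difference of 0.29.

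The partners of the chromosome 13 cluster, chi-miR-133a-3p and chi-miR-1, differed far in abundance. There were 2.85, 2.32 and 2.61 reads of chi-miR-133a-3p for every 100 of chi-miR-1 in the 1-month and 4.72, 2.98 and 3.12 in the 10-month Longlin libraries. The Nubian values were 6.85, 2.24 and 1.83 at 1 month and 3.08, 2.59 and 2.16 at 10 months. The Longlin ages did not overlap, and the 1-month Nubian replicate 1 held the highest value of all 12 libraries. The mean log2 ratio differed by 0.45 in Longlin and -0.23 in Nubian goats, with exact permutation p-values of 0.10 and 0.90 and a p of 0.79 over both breeds. Without the 1-month Nubian replicate 1 the difference over both breeds was 0.40 with an exact permutation p of 0.03.

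Within the chromosome 23 cluster, chi-miR-133b was a minor partner of chi-miR-206. For every 100 reads of chi-miR-206 there were 1.39, 0.888 and 0.593 reads of chi-miR-133b in the 1-month and 1.47, 1.27 and 1.16 in the 10-month Longlin libraries. The Nubian libraries held 0.987, 0.820 and 0.572 at 1 month and 0.630, 0.517 and 0.708 at 10 months. Neither breed was separated by age, with exact permutation p-values of 0.30 in Longlin and 0.30 in Nubian goats and 0.73 over both. All 10-month Nubian libraries lay below all 10-month Longlin libraries.

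The balance of the near-identical chi-miR-133b and chi-miR-133a-3p differed between the Longlin ages without overlap. For every 100 reads of chi-miR-133a-3p there were 3.90, 2.76 and 2.85 reads of chi-miR-133b in the 1-month and 6.59, 6.06 and 4.80 in the 10-month Longlin libraries. In Nubian goats the values were 3.18, 4.45 and 4.41 at 1 month and 3.25, 2.69 and 3.68 at 10 months. The Longlin groups did not overlap and the Nubian groups did. The log2 ratio differed by 0.88 in Longlin goats (1.84-fold, exact permutation p = 0.10) and by -0.32 in Nubian goats (exact permutation p = 0.30), and the exact p over both breeds was 0.245.

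**Figure D4:**
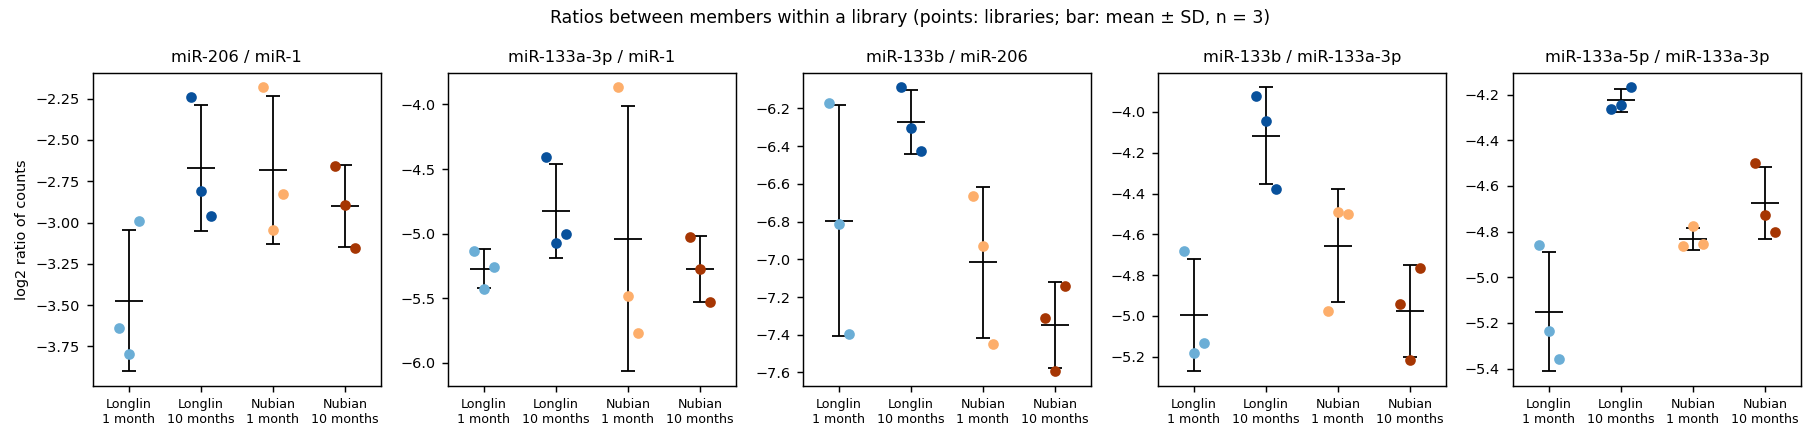
Log2 ratio of counts within a library for 5 pairs of muscle miRNAs by group, with points for libraries, bars for the mean ± SD (n = 3) and a separate scale for each pair. The ratio of chi-miR-133a-5p to chi-miR-133a-3p has means of -5.15 and -4.23 at 1 and 10 months in Longlin goats, with little spread at 10 months, while the Nubian means are -4.83 and -4.68.

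The arms of the miR-133a hairpin gave the only 1 of the 10 ratios with an unadjusted exact permutation p under 0.05 over both breeds. For every 100 reads of chi-miR-133a-3p there were 3.45, 2.65 and 2.44 reads of chi-miR-133a-5p in the 1-month and 5.21, 5.27 and 5.56 in the 10-month Longlin libraries. In Nubian goats there were 3.44, 3.65 and 3.46 at 1 month and 4.42, 3.78 and 3.58 at 10 months. The Longlin ages lay far apart relative to their spread. In Nubian goats the 10-month values were mostly higher, but the lowest of them lay below the highest 1-month value.

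The log2 arm ratio was higher at 10 months by 0.93 in Longlin goats (1.90-fold, exact permutation p = 0.10) and by 0.16 in Nubian goats (1.11-fold, exact permutation p = 0.20). Over both breeds it differed by 0.54 with an unadjusted exact permutation p of 0.01, which was 0.10 after Benjamini-Hochberg adjustment over the 10 ratios and did not pass. With each library left out in turn the difference was 0.49 to 0.61 and the unadjusted exact permutation p 0.005 to 0.02.

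The arm ratio was also taken for every hairpin with at least 10 counts of both arms in every library, miR-133a included, a comparison added after the values of miR-133a were seen. There were 50 such hairpins. The ratio of the minor to the major arm separated the ages without overlap for 56.0% of them in Longlin and 34.0% in Nubian goats, and it was higher without overlap in both breeds for 6 hairpins, a set that did not include miR-133a. In Longlin goats 17 hairpins were higher and 11 lower without overlap, and 6 had a larger increase than miR-133a. In Nubian goats 18 hairpins had a larger increase than miR-133a. The median change over the 50 hairpins was -0.13 in Longlin and -0.12 in Nubian goats on the log2 scale.

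**Figure D5:**
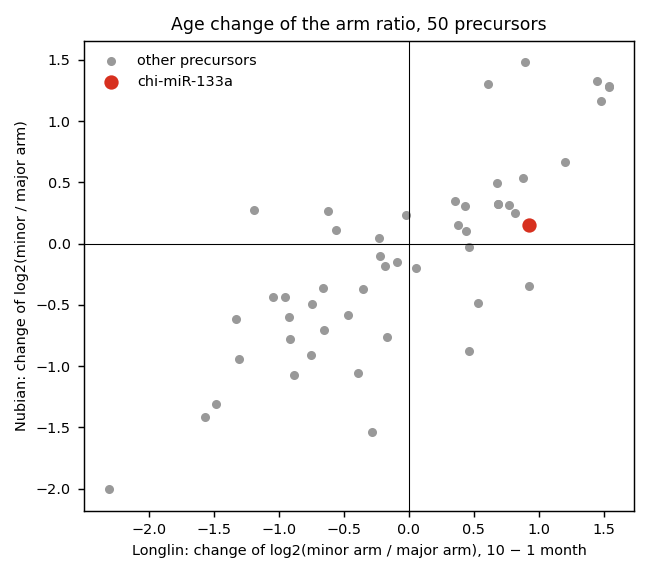
Difference between the 10-month and 1-month labels in the log2 ratio of the minor to the major arm for 50 hairpins, with Longlin goats on the horizontal and Nubian goats on the vertical axis, miR-133a as 1 of them in red and the others in gray. miR-133a lies at 0.93 and 0.16, inside the cloud of the other hairpins.

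The breeds were compared at each label as well. At 1 month 0 of the 5 miRNAs differed by edgeR's quasi-likelihood test, against a background of 0.0% (17 of 331 with an unadjusted p under 0.05 and 4 called by DESeq2), and 0 of the 5 had an unadjusted p under 0.05 or a DESeq2 call. At 10 months 0 of the 5 were DEMs in edgeR against a background of 0.302%, and 3 of the 5 had an unadjusted p under 0.05, where 86 of 331 miRNAs did.

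Those 3 miRNAs had higher values in the Nubian libraries at 10 months, but did not pass edgeR's test after adjustment. The log2 difference was 1.08 for chi-miR-1 (SE 0.35, adjusted p = 0.11), 0.86 for chi-miR-206 (SE 0.30, adjusted p = 0.12) and 0.64 for chi-miR-133a-3p (SE 0.25, adjusted p = 0.16) in edgeR's quasi-likelihood test. DESeq2 called 1 of them, chi-miR-1, at 1.15 (adjusted p = 0.035), and called 29 of 331 miRNAs in all. With total counts the log2 difference was 0.55 for chi-miR-1, 0.34 for chi-miR-206 and 0.12 for chi-miR-133a-3p. The median over all miRNAs in this comparison was -0.22 with TMM and -0.72 with total counts, and relative to these medians chi-miR-1 was 1.30 and 1.27 higher.

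Of the 10 ratios, 7 separated the breeds without overlap at 10 months and 0 at 1 month, where the background over all pairs of tested miRNAs was 40.9% and 10.7%. At 10 months the ratio of chi-miR-133b to chi-miR-206 differed by -1.08 on the log2 scale, Nubian minus Longlin, a fold of 0.474. The ratio of chi-miR-133b to chi-miR-133a-3p differed by -0.86, and the arm ratio of chi-miR-133a-5p to chi-miR-133a-3p by -0.45. These 3 did not overlap between the breeds, with an exact permutation p of 0.10 each, the smallest possible. The ratio of chi-miR-206 to chi-miR-1 differed by -0.23 at 10 months (exact permutation p = 0.50) and by 0.79 at 1 month (exact permutation p = 0.20).

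The other myomiRs with rows in the count table were miR-208b and miR-499, which sit within myosin heavy chain genes in mammals and go with slow and cardiac fibers. chi-miR-208b, on chromosome 10 from 79935204 to 79935311 within LOC102181869, had 73.6, 18.4 and 60.1 TPM in the 1-month and 8.67, 2.47 and 8.51 TPM in the 10-month Longlin libraries. Its Nubian values were 115, 109 and 82.6 TPM at 1 month and 32.4, 5.42 and 11.6 TPM at 10 months. Both breeds were separated without overlap. Of all tested miRNAs, 14.6% in Longlin and 10.5% in Nubian goats were separated downward by share.

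chi-miR-208b fell in both breeds in edgeR's quasi-likelihood test, by a log2 fold change of -3.72 (adjusted p = 0.00027) in Longlin and -2.89 (adjusted p = 0.030) in Nubian goats. chi-miR-499-5p, whose hairpin lies within MYH7B on chromosome 13 from 63862859 to 63862978, was also lower in that test. It had 5608, 2095 and 7055 TPM in the 1-month and 2104, 1880 and 2415 TPM in the 10-month Longlin libraries, which overlapped. Its Nubian values were 10016, 6581 and 8616 TPM at 1 month and 5742, 1652 and 2455 TPM at 10 months, without overlap. Its log2 fold change was -1.98 (adjusted p = 0.0014) in Longlin and -1.59 (adjusted p = 0.040) in Nubian goats in the same test. The myomiR list also named miR-208a and miR-486, which had no row. Of the 8 myomiR rows, 7 were tested, and chi-miR-499-3p with 0 to 13 counts was not. Of these 7, 5 are the miRNAs already described, and the list was chosen with earlier results of these data known. In Longlin goats 3 of the 7 fell and 0 rose, where 19.4% of all tested miRNAs fell and 31.2% rose, with a median of -0.92 against -0.01 for all tested miRNAs. In Nubian goats 2 fell and 0 rose, where 5.08% fell and 6.78% rose, with a median of -0.25 against -0.11.

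Other miRNAs known for roles in muscle differentiation gave 39 rows. This list was chosen with earlier results of these data known, and its difference from the background was not tested. In Longlin goats 11 of the 35 tested were lower and 1 was higher by edgeR's quasi-likelihood test, beside backgrounds of 19.4% and 31.2%, with a median of -0.78 against -0.01 for all tested miRNAs. In Nubian goats 3 of the 36 tested were lower and 0 higher, beside backgrounds of 5.08% and 6.78%, with a median of -0.43 against -0.11. The miRNAs called in both breeds were chi-miR-22-3p at -2.22 and -1.86, chi-miR-22-5p at -3.58 and -2.66, and chi-miR-30e-3p at -1.87 and -1.24, in Longlin and Nubian goats in that order. The higher miRNA in Longlin goats was chi-miR-181c-5p, at 1.96.

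Markers of other cells were read beside the muscle miRNAs, in lists chosen with earlier results of these data known. Only some of them differed with age. The 5 fibroblast rows summed to 0.0473% to 0.0828% in the 1-month and 0.203% to 0.289% in the 10-month Longlin libraries, and to 0.0310% to 0.0690% and 0.0991% to 0.206% in the Nubian libraries. Of these rows, 2 of which (miR-214) also stand in the muscle differentiation list, 2 rose in Longlin and 3 in Nubian goats by edgeR's quasi-likelihood test, and 0 fell in either breed. The 4 smooth muscle rows, led by chi-miR-143-3p, summed to 5.15% to 9.69% at 1 month and 9.06% to 11.8% at 10 months in Longlin goats, and to 6.70% to 13.1% and 5.65% to 6.95% in Nubian goats, with 1 lower in each breed. Of the leukocyte rows, 2 of 3 tested fell in Longlin goats, chi-miR-150 at -1.89 and chi-miR-223-3p at -3.80 on the log2 scale, and 0 of 3 in Nubian goats. Of the erythroid rows 1 of 2 tested rose in Longlin and 0 of 3 in Nubian goats, and 0 of the 2 endothelial rows were called in either breed. The background of these counts was again 19.4% lower and 31.2% higher in Longlin goats, and 5.08% and 6.78% in Nubian goats. The part of these markers in the values of the muscle miRNAs was not tested.

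The profile of each muscle miRNA over the 12 libraries was compared with those of all 331 miRNAs tested, by the root mean square (RMS) difference of log2 CPM after each was centred on its own mean. These values describe 12 libraries that share their scaling. chi-miR-1 was nearest to chi-miR-10b-5p, with an RMS difference of 0.36 against its own RMS spread of 0.59, and then to novel_388, chi-miR-100-5p, chi-miR-16a-5p and chi-miR-10a-5p. Its seed relative chi-miR-206 came at rank 9 and its cluster partner chi-miR-133a-3p at rank 17.

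chi-miR-133a-3p was nearest to chi-miR-30c-5p at 0.24, followed by chi-miR-361-3p, chi-miR-16b-5p, chi-miR-191-5p and chi-miR-27b-5p. chi-miR-206 was nearest to chi-miR-27b-5p at 0.36, followed by chi-miR-331-5p and chi-miR-451-5p, and it had chi-miR-133a-3p at rank 4 and novel_388 at rank 5. chi-miR-133a-5p had chi-miR-186-5p at 0.20 as its nearest, then chi-miR-191-5p and chi-miR-125a-5p, with chi-miR-133b at rank 4 and chi-miR-192-5p at rank 5. chi-miR-133b was nearest to chi-miR-361-5p at 0.20, followed by chi-miR-186-5p, chi-miR-191-5p, chi-miR-192-5p and chi-miR-340-5p. A flat profile would lie at the own RMS spread, which was 0.37 for chi-miR-133a-3p, 0.50 for chi-miR-206, 0.29 for chi-miR-133a-5p and 0.26 for chi-miR-133b. Ranks 3 to 5 of chi-miR-133a-5p, at 0.27 to 0.29, were about as far as that. The same held for ranks 2 to 5 of chi-miR-133b, at 0.25 to 0.27. For both minor miRNAs the distance to chi-miR-1, at 0.69, was larger than to chi-miR-133a-3p, at 0.36 and 0.41.

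The deposited target predictions held 5742 pairs of a transcript and a miRNA for 386 miRNAs, with a median of 4 genes each. They listed 0 pairs for chi-miR-1, the most abundant miRNA. The authors intersected PITA, miRanda and RNAhybrid and described their prediction conditions as strict. A missing pair therefore does not show that a miRNA lacks targets. chi-miR-133a-3p had 25 transcripts of 16 genes, chi-miR-133b 17 transcripts of 9 genes, chi-miR-133a-5p 2 genes and chi-miR-206 1 gene. chi-miR-133a-3p and chi-miR-133b shared 8 genes, 8 of the 16 and 88.9% of the 9. These were ABCF3, FAM167B, MUTYH, a DNA repair glycosylase, NFE2, an erythroid transcription factor, OGDH, a subunit of the oxoglutarate dehydrogenase complex, PAN2, a deadenylase subunit, and the calcium-binding S100A13 and S100A14. The chi-miR-133a-5p genes were LOC102182197 and NCR1, a natural killer cell receptor, and the chi-miR-206 gene was LOC102175547.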

How the data were processed

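Per the authors' methods, small RNA reads were trimmed, mapped to goat ARS1.2, cleared of rRNA, tRNA, snRNA and snoRNA with Rfam, and assigned to goat miRBase miRNAs and to miRNAs predicted with MIREAP. The submitters' processing notes name Bowtie 0.12.2. The deposited counts are raw reads per miRNA and library, and the deposited TPM were made by the authors as count divided by the library's total, times 1000000. The comparison tables of the authors hold a signal, the mean of counts divided by DESeq2 size factors, which was used to check the age names, and fold changes and p-values, which were not used. The enrichment tables were not used. mRNA libraries were not analysed here.

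A miRNA entered the test where 3 or more libraries held 10 or more of its counts. The fit used edgeR 4.0.16 in R 4.3.3 (TMM, quasi-likelihood test, Benjamini-Hochberg over all tested), within each breed for age and over 12 libraries for the other comparisons. DEMs exceeded 1 on the log2 scale in either direction with an adjusted p under 0.05. The interaction had no fold limit. Ratios and shares were compared by two-sided exact permutation tests. DESeq2 1.42.0 was an alternative, with other scalings, filters, a replicate block and each library left out. On simulated data, 192 of 192 changed miRNAs were recovered in Longlin libraries with 1 false call, and 186 of 186 in Nubian with 3. These counts pool all changed miRNAs, and recovery of the muscle miRNAs by themselves was not tested. The planted change was 3 on the log2 scale, larger than any age difference of the muscle miRNAs, and smaller changes were not simulated. The 10 most abundant miRNAs, chi-miR-1 and chi-miR-206 among them, were never changed. Recovery of changes as small as those of the muscle miRNAs is therefore unknown. Positions come from RefSeq (ARS1.2), with no strand given. Python 3.11.15 with scipy 1.17.1 was used. The named miRNAs are all rows found by the name rule, the fixed lists, the 10 most abundant, and the 5 nearest profiles of each muscle miRNA. The members and the lists were chosen with earlier results of these data known.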

Additional observations from a re-analysis of the deposited data

How the results depend on the processing

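chi-miR-1 in Longlin goats was the only muscle miRNA called by age. That count of 1 was 0 with total counts and 2 without a fold limit, and it ranged from 0 to 1 with each library left out, 0 being the value without the 10-month Longlin replicate 1. The breed comparison at 10 months went from 0 to 1 call with DESeq2 and with the replicate block. The other counts of called muscle miRNAs stayed at 0 under every alternative. The cause of these changes was not tested.

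Whether the replicate numbers paired the goats could not be told. Same-numbered deviations correlated at 0.04, 0.13 and 0.19 in Longlin and -0.03, 0.18 and 0.05 in Nubian goats. Longlin replicates 2 and 3 and Nubian replicate 2 matched their own number best, and the others matched another number. Such low values do not exclude a pairing or a shared batch. With the replicate block, chi-miR-1 at 10 months was 1.08 higher in Nubian goats (adjusted p = 0.019, edgeR), chi-miR-206 was -0.57 in Longlin goats by age (adjusted p = 0.041, edgeR, under the fold limit), and 2 values near 0 changed sign, chi-miR-133a-5p in Longlin goats (-0.0080) and chi-miR-1 in Nubian goats (0.012).

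The remaining changes of sign concerned values that were no DEMs, on the log2 scale unless stated. Total counts gave 0.19 for chi-miR-206 and 0.73 for chi-miR-133b (adjusted p = 0.042, edgeR, under the fold limit) in Longlin goats, 0.12 for chi-miR-1 in Nubian goats, and 0.042 and 0.12 for chi-miR-206 and chi-miR-133b over both breeds. They also gave -0.14 for chi-miR-133a-3p and -0.30 for chi-miR-206 in the interaction, and -0.32 for chi-miR-133a-5p between breeds at 10 months. Total counts less the 5 miRNAs gave 0.15 for chi-miR-133b in Longlin goats, and 0.22 for chi-miR-1, 0.10 for chi-miR-133a-5p and 0.0087 for chi-miR-206 in Nubian goats. In the fit of all 12 libraries chi-miR-133b was 0.25 in Longlin and chi-miR-1 0.074 in Nubian goats, and DESeq2 and its size factors each gave 0.069 for the latter. Without a filter chi-miR-133b was 0.14 in Longlin goats and 0.029 between breeds at 10 months, and chi-miR-133a-5p was -0.056 over both breeds and 0.0077 in the interaction.

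With each library left out in turn, the Longlin age value ran from -0.053 to 0.30 for chi-miR-133a-5p and from -0.12 to 0.19 for chi-miR-133b. The Nubian age value ran from -0.33 to 0.27 for chi-miR-1, -0.38 to 0.014 for chi-miR-133a-3p, -0.22 to 0.15 for chi-miR-133a-5p and -0.34 to 0.0040 for chi-miR-206. Over both breeds chi-miR-133a-5p ran from -0.093 to 0.18, and in the interaction from -0.42 to 0.26. Between breeds at 1 month, chi-miR-1 ran from -0.41 to 0.084 and chi-miR-133a-3p from -0.27 to 0.19. Of the ratios, chi-miR-206 to chi-miR-1 ran from -0.40 to 0.033 and chi-miR-133a-3p to chi-miR-1 from -0.60 to 0.35 in Nubian goats. Over both breeds, chi-miR-133a-3p to chi-miR-1 ran from -0.077 to 0.40, the highest without the 1-month Nubian replicate 1, and chi-miR-133b to chi-miR-206 from -0.057 to 0.25.

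In percentage points of the share, leaving libraries out gave -0.63 to 0.33 for chi-miR-133a-3p, -0.015 to 0.017 for chi-miR-133a-5p and -1.499 to 0.14 for chi-miR-206 in Nubian goats. Over both breeds it gave -0.38 to 0.10, 0.0076 to 0.024 (exact permutation p = 0.01 without the 1-month Nubian replicate 1) and -0.37 to 0.54 for the same 3 miRNAs. Medians in place of means turned chi-miR-133a-3p to 0.35 in Nubian goats and 0.16 over both breeds, chi-miR-133a-5p to 0.015 in Nubian goats, and the log2 ratio of chi-miR-133a-3p to chi-miR-1 to 0.21. A denominator without the 10 most abundant other miRNAs gave 0.11 for chi-miR-133a-3p in Longlin goats.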
